A study of Mus musculus with 40 samples.

Results

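The step from day 3 to day 4 was followed in untreated aggregates of mouse embryonic stem cells by comparing the 4 day 4 libraries with the 4 day 3 libraries, which are 8 of the 40 libraries of the series. The cells were of the CGR8 line (strain 129) and were made into epiblast-like aggregates in serum-free N2B27 medium that held Activin-A, Fgf2 and KSR. Every group received this medium, so all changes below took place under added Activin-A and Fgf2. The groups used were untreated aggregates on day 4 and on day 3 (titled "no matrigel", with the treatment left blank), aggregates given XAV939 from 0 h to 72 h on day 4 and on day 3, and untreated aggregates on day 5, with 4 libraries each. CGR8 is a single line, and no label says whether the libraries of a group came from separate cultures, so the p-values measure the spread between libraries, which may be technical. Whole aggregates were sequenced, so fewer cells of a type and less RNA per cell cannot be told apart.

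The epiblast is the pluripotent tissue of the early embryo from which the germ layers arise. At gastrulation Wnt and Nodal signals switch on the genes of the primitive streak on its posterior side, where cells lose their epithelial form and become mesoderm or endoderm, while cells away from the streak turn to neural fates. Activin-A acts through the receptors that Nodal uses, Fgf2 acts through the MAP kinase ERK, and XAV939 inhibits tankyrase, which stabilises Axin and lowers Wnt/β-catenin signalling.

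The 8 libraries held 33857168 to 43852452 counts each. Levels are given as CPM, which are counts divided by library totals scaled by trimmed means of M values (TMM). The values of a group are listed in the order of libraries 1 to 4. Library 1 of day 4 stood apart from the other 3 libraries of its group before any gene was tested. Its root mean square log2 distance to them was 0.83 to 0.838, against 0.444 to 0.445 for the closest pairs among the other 3 and 0.41 to 0.562 for the 6 pairs of day 3 libraries. It lay farther from the day 3 mean than the others did (1.2, against 0.813 to 0.988) and nearer to the day 5 mean (0.706, against 0.844 to 0.937). Mitochondrial genes gave 1.53% of its counts, against 2.99% to 3.27% in day 4 libraries 2 to 4, and the number 1 libraries of day 3, of XAV939 day 4 and of day 5 also had low shares (1.83%, 1.28% and 1.35%). Values without this library are therefore given mainly where leaving it out ended a call or moved a value by over 1.5 times, and for the main lists. The part of the mitochondrial share in the results was not tested.

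Across 16878 tested genes, 2968 (17.6%) were called higher and 2549 (15.1%) lower on day 4, which is 32.7% in either direction, at an adjusted p below 0.05 in edgeR's quasi-likelihood test. At a fold change of at least 2 (an absolute log2 of 1) the calls were 1554 higher and 1292 lower. Counts of calls in the gene lists below are to be read beside the 17.6% and 15.1%. Among the day 4 libraries, library 1 was the highest in 6222 of the 16878 genes and the lowest in 5934. Leaving out day 4 library 1 gave 2557 higher (15.1%) and 2206 lower (13.1%) calls, of which 2416 and 2042 were also called with it. The genes lost were 552 of those called higher (18.6%) and 507 of those called lower (19.9%), and 141 and 164 were gained. A loss of this size was not particular to that library, since leaving out any of the other 7 lost 501 to 1004 calls in all, against 1059 for library 1.

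What did differ with library 1 was the size of the changes. The fold change of 212 called genes (3.84% of the calls) moved by over 1.5 times when it was left out, against 17 to 67 called genes when any other of the 8 libraries was left out. Of the 212 genes, 202 were called higher with a larger rise when library 1 was in, and 10 were called lower. Over all tested genes 494 (2.93%) moved by over 1.5 times. The sign turned in 5 called genes, namely Lhx1, Lhx1os, Sox17, Cer1 and Gm45623, and 2900052N01Rik had 0 counts in the other 7 libraries, whereas no called gene turned its sign when any other library was left out. Of these, Lhx1os, 2900052N01Rik and Gm45623 were named after their values were seen.

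**Figure D1:**
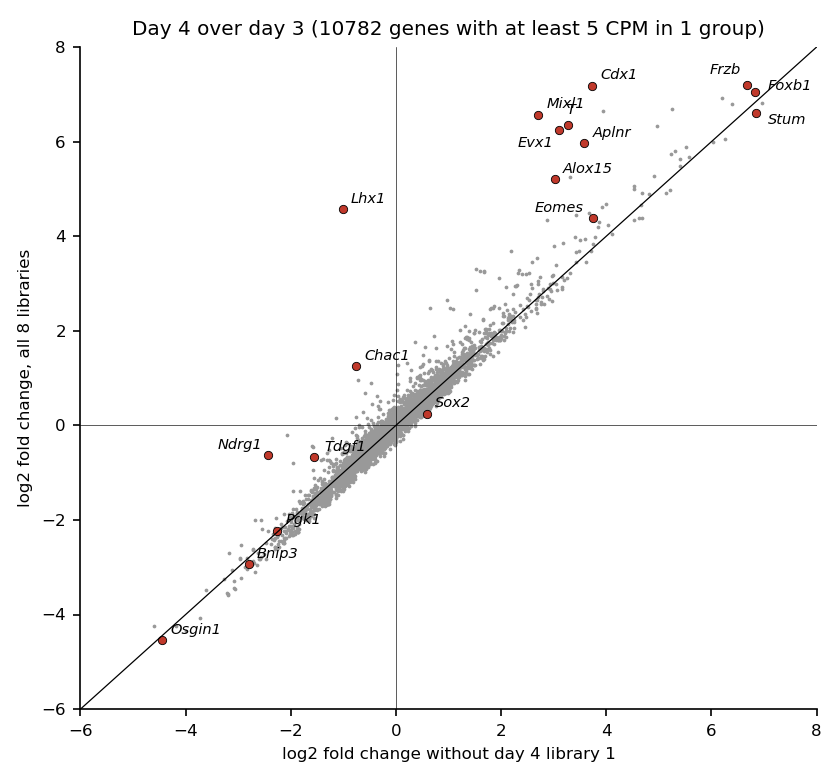
Log2 fold change of day 4 over day 3 for the 10782 genes whose mean reached 5 CPM in 1 of the groups, with all 8 libraries (vertical axis) against the same without day 4 library 1 (horizontal axis), with the line of equality and 18 named genes in red. Frzb, Foxb1, Pgk1, Bnip3 and Osgin1 lie near the line, while Lhx1, Mixl1, Cdx1, Evx1, T, Aplnr, Chac1 and Ndrg1 lie far above it.

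The 12 largest rises that were called with and without library 1 came from unlike gene families. They and the largest falls were chosen among genes whose groups do not overlap, so their separation is part of the choice. Frzb, a secreted Wnt antagonist, had 47.2, 12.3, 10.4 and 28.7 CPM in the day 4 libraries, against 0.113, 0.0539, 0.282 and 0.201 CPM in the day 3 libraries (log2 fold change 7.21 ± 0.56 (SE), adjusted p 7.91e-12). Foxb1, a forkhead factor of the early neural tube, had 36.5, 21.2, 16.9 and 28.2 CPM in the day 4 libraries, against 0.141, 0.27, 0.179 and 0.172 CPM in the day 3 libraries (7.04 ± 0.38 (SE), adjusted p 1.79e-15). The day 4 and day 3 values of both genes were far apart, and without library 1 the log2 fold changes were 6.68 for Frzb and 6.83 for Foxb1.

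Nkx1-2, a homeobox gene of the caudal epiblast, had 340.3, 110.0, 57.6 and 119 CPM in the day 4 libraries, against 2.37, 0.674, 0.999 and 1.15 CPM in the day 3 libraries (6.92 ± 0.73 (SE), adjusted p 5.15e-09, and 6.20 without library 1). Cyp26a1, the enzyme that degrades retinoic acid, had 13.9, 3.14, 5.35 and 9.55 CPM in the day 4 libraries, against 0.0565, 0.0539, 0.0256 and 0.144 CPM in the day 3 libraries (6.80 ± 0.74 (SE), adjusted p 1.04e-08). Stum, the mouse relative of a fly gene needed in mechanosensory neurons, was lowest in library 1 among the day 4 libraries, with 14.9, 26.1, 33.5 and 59.1 CPM in the day 4 libraries, against 0.48, 0.27, 0.307 and 0.316 CPM in the day 3 libraries (6.59 ± 0.46 (SE), adjusted p 2.13e-12). 2510009E07Rik rose as well, to 10.51, 11.2, 9.4 and 28.9 CPM on day 4 against 0.141, 0.0539, 0.154 and 0.172 CPM on day 3. Rtl8c, a retrotransposon-derived gene, had 99.6, 16.1, 8.38 and 13.1 CPM in the day 4 libraries, against 0.48, 0.324, 0.359 and 0.144 CPM in the day 3 libraries (6.70 ± 0.68 (SE), adjusted p 2.55e-09 with and 5.24 ± 0.49 (SE), adjusted p 6.99e-10 without library 1). Rtl8c has near-identical copies in Rtl8a and Rtl8b, which were also called higher (log2 fold changes 2.53 and 3.19 with library 1, and 1.86 and 2.47 without), and how their reads were shared out is not stated.

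The other 5 of the 12 largest rises, like Rtl8c, were much smaller without library 1. T (brachyury), the defining factor of the primitive streak, had 549.5, 24.6, 11.8 and 17.2 CPM in the day 4 libraries, against 1.7, 1.56, 2.31 and 1.78 CPM in the day 3 libraries, with library 1 far above the rest. The fold change on the log2 scale was 6.36 ± 0.91 (SE), adjusted p 1.3e-06 with library 1 and 3.28 ± 0.53 (SE), adjusted p 1.3e-05 without it. Mixl1, a homeobox factor of mesendoderm, had 167, 4.17, 2.06 and 2.82 CPM in the day 4 libraries, against 0.621, 0.431, 0.282 and 0.517 CPM in the day 3 libraries. Sp5, a zinc finger factor switched on directly by Wnt/β-catenin, had 31.9, 4.76, 2.45 and 5.96 CPM in the day 4 libraries, against 0.17, 0.108, 0.0769 and 0.201 CPM in the day 3 libraries. All 3 genes were above every day 3 value in libraries 2 to 4 as well, which the choice required. Without library 1 the log2 fold changes were 2.71 for Mixl1 and 4.97 for Sp5. Evx1, a homeobox gene of the posterior streak, and Evx1os, transcribed from the opposite strand, share 73 exonic bases. Since the strand setting of the counting is not given, reads in these shared bases cannot be told apart. Evx1 had 37.1, 1.22, 0.847 and 1.34 CPM in the day 4 libraries, against 0.0847, 0.216, 0.102 and 0.115 CPM in the day 3 libraries. Evx1os had 23.1, 0.723, 0.756 and 1.48 CPM in the day 4 libraries, against 0.0847, 0.0809, 0.0769 and 0 CPM in the day 3 libraries. With library 1 the log2 fold changes were 6.25 in Evx1 and 6.65 in Evx1os, and without it 3.10 and 3.93.

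**Figure D2:**
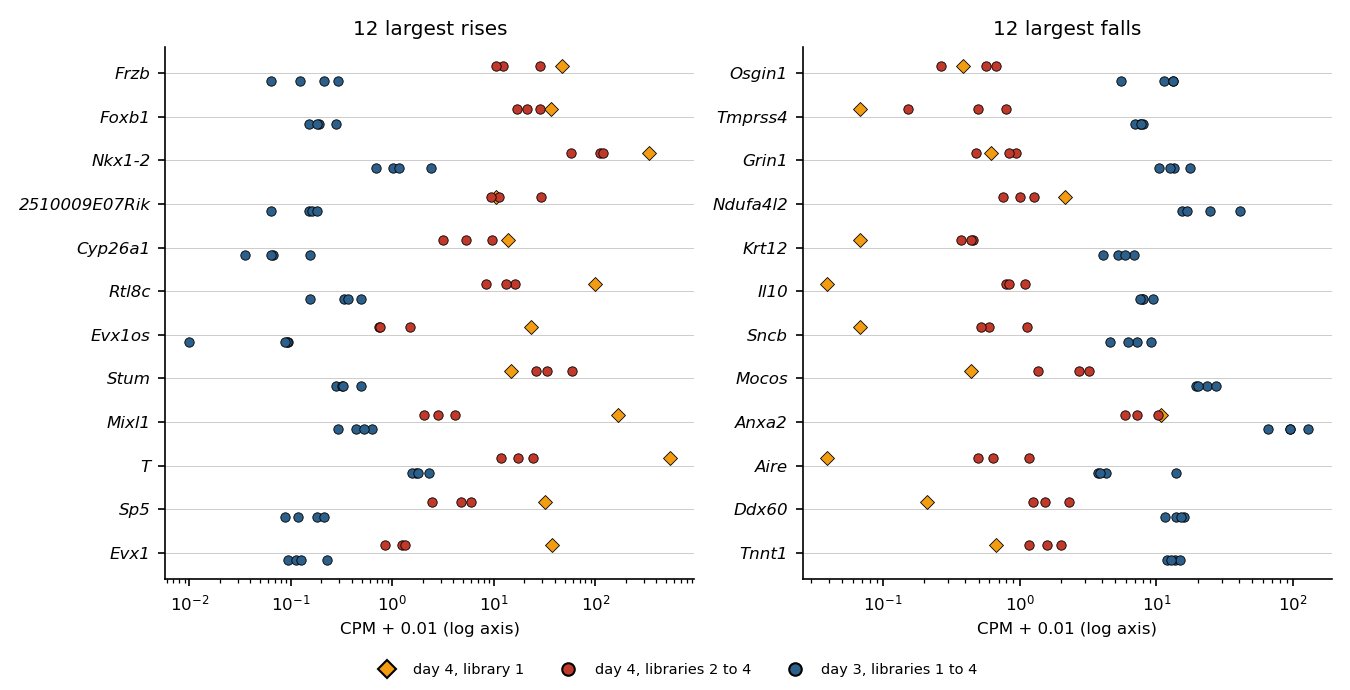
CPM plus 0.01 on a log axis in each library for the 12 largest rises (left panel) and the 12 largest falls (right panel) among genes called with and without day 4 library 1. Orange diamonds are day 4 library 1, red circles day 4 libraries 2 to 4 and blue circles the day 3 libraries. The day 4 and day 3 values of each of the 24 genes do not overlap, which the choice of genes required.

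The largest falls came from unlike gene families. Osgin1, an oxidative stress-responsive growth inhibitor, had 0.374, 0.556, 0.665 and 0.257 CPM in the day 4 libraries, against 5.48, 13.1, 11.3 and 13.2 CPM in the day 3 libraries (-4.53 ± 0.48 (SE), adjusted p 5.78e-09). Grin1, the obligatory subunit of NMDA receptors, had 0.605, 0.473, 0.937 and 0.827 CPM in the day 4 libraries, against 17.7, 13.51, 12.53 and 10.4 CPM in the day 3 libraries (-4.25 ± 0.31 (SE), adjusted p 3.96e-12). Ndufa4l2, a mitochondrial protein induced by hypoxia, had 2.13, 1.25, 0.998 and 0.741 CPM in the day 4 libraries, against 40.7, 24.6, 15.2 and 16.7 CPM in the day 3 libraries (-4.24 ± 0.57 (SE), adjusted p 5.32e-07). For these 3 genes every day 4 library lay below every day 3 library, which the choice required. The log2 fold changes without library 1 were -4.45, -4.18 and -4.60.

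Anxa2, a calcium-dependent membrane-binding protein, fell to 10.8, 10.2, 7.2 and 5.9 CPM on day 4, against 94.2, 94, 128 and 65.6 CPM on day 3 (-3.48 ± 0.32 (SE), adjusted p 3e-10). Tmprss4, a transmembrane serine protease, had 0.0576, 0.779, 0.484 and 0.143 CPM in the day 4 libraries, against 7.54, 7.01, 7.94 and 7.75 CPM in the day 3 libraries (-4.35 ± 0.43 (SE), adjusted p 1.57e-09). Tnnt1, the slow skeletal troponin T, had 0.662, 1.59, 2 and 1.17 CPM in the day 4 libraries, against 12, 13.7, 14.9 and 12.8 CPM in the day 3 libraries (-3.30 ± 0.30 (SE), adjusted p 2.01e-10). In Tmprss4 and Tnnt1 library 1 was the lowest day 4 library, and this was also the case in the other 6 genes, which are Krt12 (a keratin), Il10 (a cytokine), Sncb (β-synuclein), Mocos (molybdenum cofactor sulfurase), Aire (a transcription factor best known from the thymus) and Ddx60 (an antiviral helicase). Their log2 fold changes ran from -4.07 in Krt12 to -3.43 in Ddx60 with library 1, and from -3.73 in Krt12 to -3.07 in Ddx60 without it.

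Genes of glycolysis and the hypoxia response fell together, and this did not depend on library 1. Of 24 tested members 19 were called lower and 0 higher, against 15.1% of all genes called lower, and without library 1 the count was 20 lower. The median log2 fold change of the 24 was -1.19, against 0.0264 over all genes tested, and without library 1 it was -1.25 against 0.004. Pgk1, the phosphoglycerate kinase of glycolysis, had 341, 342, 279.5 and 312 CPM in the day 4 libraries, against 1638, 1371, 1712 and 1243 CPM in the day 3 libraries (-2.23 ± 0.20 (SE), adjusted p 2.01e-10). Bnip3, a mitophagy receptor induced by hypoxia, had 22.4, 36.5, 36.4 and 32.3 CPM in the day 4 libraries, against 244, 264, 274 and 196 CPM in the day 3 libraries (-2.94 ± 0.31 (SE), adjusted p 4.5e-09). In both genes all 4 day 4 libraries lay close together and far below day 3.

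Egln3, a prolyl hydroxylase that marks HIF-1α for degradation and is itself a HIF target, had 16.7, 15.9, 12.1 and 12.8 CPM in the day 4 libraries, against 103, 110.0, 67.1 and 77 CPM in the day 3 libraries (-2.63 ± 0.24 (SE), adjusted p 3.36e-10). Car9, a membrane carbonic anhydrase and HIF target, was low throughout, with 0.144, 0.278, 0.181 and 0.171 CPM in the day 4 libraries, against 2.51, 1.97, 1.72 and 1.69 CPM in the day 3 libraries (-3.32 ± 0.33 (SE), adjusted p 1.85e-09). Ero1l, an oxidase of disulfide formation that is also a HIF target and was listed with the stress response, had 44.9, 41.8, 34.4 and 41.5 CPM in the day 4 libraries, against 156, 189, 164 and 128 CPM in the day 3 libraries (-1.97 ± 0.21 (SE), adjusted p 5.36e-09). These genes fell to similar levels in the 4 day 4 libraries. The 5 members not called were Slc2a1, Slc2a3 and Hk2 of glucose uptake and phosphorylation, the growth factor gene Vegfa, and Ndrg1, with log2 fold changes of -0.40 in Slc2a1, 0.24 in Slc2a3, 0.18 in Hk2, 0.09 in Vegfa and -0.64 in Ndrg1, all named after their values were seen.

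Ndrg1, a stress- and hypoxia-induced gene, was called only without library 1. It had 247, 28.9, 20.7 and 18.2 CPM in the day 4 libraries, against 159, 159, 85.7 and 85.2 CPM in the day 3 libraries. Day 4 library 1 lay above every day 3 library, while the other 3 lay below every one. The log2 fold change was -0.64 ± 0.52 (SE), adjusted p 0.374 with library 1 and -2.44 ± 0.41 (SE), adjusted p 2.14e-05 without it.

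The promoters of the 4 members with the smallest adjusted p are shown because they hold the core of the hypoxia response element, ACGTG, which HIF binds. The sequences are those of RefSeq on GRCm38 (mm10), 250 bases before to 50 after the start of the gene, 5′ to 3′ on the strand of the gene, in lower case with ACGTG or its reverse complement CACGT in capitals. Pgk1 is at chrX:106186850-106187149 (plus strand) with 2 matches, Egln3 at chr12:54203825-54204124 (minus strand) with 1, Car9 at chr4:43506776-43507075 (plus strand) with 1, and Bnip3 at chr7:138909457-138909756 (minus strand) with 2 that overlap.
Pgk1: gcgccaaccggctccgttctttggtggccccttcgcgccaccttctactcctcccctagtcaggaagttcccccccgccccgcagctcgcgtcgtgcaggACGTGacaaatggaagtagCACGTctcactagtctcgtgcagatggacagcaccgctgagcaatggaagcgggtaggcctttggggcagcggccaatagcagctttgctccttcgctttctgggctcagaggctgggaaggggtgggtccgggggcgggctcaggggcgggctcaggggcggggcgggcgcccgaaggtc
Egln3: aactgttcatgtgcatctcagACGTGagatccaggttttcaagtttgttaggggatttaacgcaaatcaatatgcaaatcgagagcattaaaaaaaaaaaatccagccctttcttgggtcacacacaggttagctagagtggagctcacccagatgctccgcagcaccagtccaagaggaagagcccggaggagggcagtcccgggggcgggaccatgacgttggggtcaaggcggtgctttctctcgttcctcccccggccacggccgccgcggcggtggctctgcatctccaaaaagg
Car9: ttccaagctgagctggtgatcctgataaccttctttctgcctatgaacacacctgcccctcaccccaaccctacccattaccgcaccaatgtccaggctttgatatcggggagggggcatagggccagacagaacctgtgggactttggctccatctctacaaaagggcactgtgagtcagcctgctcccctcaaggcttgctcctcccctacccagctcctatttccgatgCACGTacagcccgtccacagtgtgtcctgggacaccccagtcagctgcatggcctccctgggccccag
Bnip3: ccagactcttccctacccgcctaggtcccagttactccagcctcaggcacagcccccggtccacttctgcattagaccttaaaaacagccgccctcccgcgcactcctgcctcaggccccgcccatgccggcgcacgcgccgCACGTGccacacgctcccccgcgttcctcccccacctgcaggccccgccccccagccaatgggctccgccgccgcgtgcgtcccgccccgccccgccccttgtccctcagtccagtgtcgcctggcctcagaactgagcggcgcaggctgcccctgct
Of the 25 genes of the list 23 had a promoter in the table, and 16 of them held ACGTG on either strand. Among the 19 members called lower the number was 12, against 27.9% of the promoters of 12747 tested genes and 21.8% of those of all 27025 genes. The match was thus no more frequent among the members called lower than over the whole list (16 of 23). The overlapping matches of Bnip3 form CACGTG, the E-box that many other factors bind. A match is a description of the letters and not a binding site.

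Epithelial genes fell as a group. Of 21 tested genes of epithelial junctions 14 were called lower and 0 higher, against 15.1% of all genes called lower. Of these 12 were also called without library 1, with median log2 fold changes over the list of -1.18 with and -1.11 without it. Krt18, a keratin of simple epithelia, had 67.7, 77.8, 91.5 and 59.9 CPM in the day 4 libraries, against 337, 315, 376 and 298 CPM in the day 3 libraries (-2.16 ± 0.29 (SE), adjusted p 4.12e-07). Ocln (occludin), a protein of tight junctions, had 12.6, 19.9, 19.1 and 17.54 CPM in the day 4 libraries, against 40.8, 44.3, 46.9 and 45.8 CPM in the day 3 libraries (-1.36 ± 0.21 (SE), adjusted p 4.15e-06). Esrp2, a regulator of epithelial splicing, had 3.14, 4.7, 4.45 and 2.48 CPM in the day 4 libraries, against 16.2, 25.8, 27.3 and 26.8 CPM in the day 3 libraries (-2.70 ± 0.42 (SE), adjusted p 4.72e-06). Tjp3, a scaffold of tight junctions, changed by a log2 of -2.23 ± 0.37 (SE), adjusted p 1.27e-05. Esrp2 shares 219 exonic bases with Nfatc3 on the other strand. Cdh1 (E-cadherin) was not among those called, with 736, 786, 857 and 646 CPM in the day 4 libraries, against 1083, 1023, 1061 and 1133 CPM in the day 3 libraries (-0.51 ± 0.26 (SE), adjusted p 0.136).

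Of 18 genes of the epithelial-mesenchymal transition 7 were called higher and 2 lower, against 17.6% and 15.1% of all genes, and 7 and 3 without library 1. Cdh2 (N-cadherin), the cadherin that replaces E-cadherin in mesenchymal and neural cells, had 87.6, 35, 33.9 and 55.7 CPM in the day 4 libraries, against 5.37, 4.5, 5.82 and 4.42 CPM in the day 3 libraries (3.40 ± 0.28 (SE), adjusted p 2.39e-11, and 3.04 without library 1). Zeb2, a repressor of Cdh1, had 29.7, 32.2, 44.3 and 65.7 CPM in the day 4 libraries, against 4.55, 3.61, 4.38 and 3.02 CPM in the day 3 libraries (3.46 ± 0.31 (SE), adjusted p 2.01e-10), and its antisense gene Zeb2os shares 653 exonic bases with it. In Zeb2 library 1 was the lowest of day 4, and in Cdh2 the highest. Cdh11, a mesenchymal cadherin, and Twist1, a mesodermal bHLH factor, were also called higher (2.999 and 1.92), while Acta2, smooth muscle actin, fell to 25.3, 25.6, 22.7 and 20.2 CPM on day 4, against 152, 95.7, 118 and 94.1 CPM on day 3. Snai1, the repressor of Cdh1 that acts in the streak, had 8.47, 1.98, 2.63 and 2.48 CPM in the day 4 libraries, against 1.86, 5.12, 1.9 and 3.93 CPM in the day 3 libraries. The fold change on the log2 scale was 0.28 ± 0.52 (SE), adjusted p 0.726 with library 1 and -0.44 ± 0.54 (SE), adjusted p 0.583 without it.

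Germline genes that DNA methylation silences in somatic cells fell to lower levels. Of 16 tested members 13 were called lower and 0 higher, against 15.1% of all genes called lower, and 10 were called lower without library 1. Sycp3, of the synaptonemal complex, had 16, 43.6, 35.6 and 31.3 CPM in the day 4 libraries, against 121, 124, 121 and 118 CPM in the day 3 libraries (-1.93 ± 0.32 (SE), adjusted p 1.36e-05). Ddx4, the germ cell helicase Vasa, had 2.5, 7.9, 6.53 and 5.33 CPM in the day 4 libraries, against 14.4, 17.3, 22.7 and 16.4 CPM in the day 3 libraries (-1.67 ± 0.32 (SE), adjusted p 9.82e-05). Slc25a31, a germ cell ADP/ATP carrier, had 0.403, 2.2, 2.18 and 2.2 CPM in the day 4 libraries, against 5.73, 6.69, 11.8 and 7.61 CPM in the day 3 libraries (-2.19 ± 0.41 (SE), adjusted p 6.99e-05). Library 1 was the lowest day 4 library in 14 of the 16 members, against 5934 of all 16878 genes. The summed level of the members was 21.9 CPM in library 1, 59.0 to 88.8 CPM in libraries 2 to 4 and 194 to 249 CPM on day 3. Tuba3a, a tubulin of this list, had log2 fold changes of -2.31 with library 1 and -1.97 without it. The methyltransferase Dnmt3a was called lower (-0.83 ± 0.18 (SE), adjusted p 0.000562), while Dnmt3b was not called (0.00 ± 0.24 (SE), adjusted p 1).

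Of 19 genes of a joint list of heat shock and immediate early genes 10 were called lower and 0 higher, against 15.1% of all genes called lower, and 8 without library 1. The groups did not overlap in 5 of the 19, against 15.9% of all genes. Jun, a subunit of AP-1, had 4.72, 5.09, 7.26 and 3.54 CPM in the day 4 libraries, against 16.3, 34, 10.04 and 18.4 CPM in the day 3 libraries (-1.93 ± 0.33 (SE), adjusted p 1.86e-05). Dusp1, a phosphatase of MAP kinases, had 12.3, 19.3, 19.9 and 16.9 CPM in the day 4 libraries, against 28.7, 50.8, 26.8 and 33.3 CPM in the day 3 libraries (-1.03 ± 0.22 (SE), adjusted p 0.000407). Dnajb1, a co-chaperone of Hsp70, changed by a log2 of -0.58 ± 0.12 (SE), adjusted p 0.000261. Fosb, a partner of Jun, varied widely on day 3, with 0.115, 0.39, 0.0907 and 0.0856 CPM in the day 4 libraries, against 0.0282, 6.69, 0.743 and 3.56 CPM in the day 3 libraries (-3.98 ± 0.90 (SE), adjusted p 0.000709), and the groups overlapped.

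Cholesterol synthesis showed small rises of narrow spread. Of 20 tested genes 9 were called higher, against 17.6% of all genes, and 1 lower, with the same counts without library 1. Hmgcs1, which makes HMG-CoA, had 903, 1014, 1009 and 1087 CPM in the day 4 libraries, against 510.2, 508, 512 and 582 CPM in the day 3 libraries (0.93 ± 0.11 (SE), adjusted p 4.12e-08). Nsdhl, a sterol dehydrogenase, had 91.1, 90.5, 91.8 and 108 CPM in the day 4 libraries, against 57.5, 47.8, 55.9 and 52.2 CPM in the day 3 libraries (0.84 ± 0.11 (SE), adjusted p 1.58e-07). Lss, which closes the sterol rings, had 199, 198, 209 and 193 CPM in the day 4 libraries, against 145, 142, 129.5 and 142 CPM in the day 3 libraries (0.52 ± 0.09 (SE), adjusted p 2.01e-05). Idi1, of the isoprenoid steps, changed by a log2 of 0.85 ± 0.16 (SE), adjusted p 6.86e-05. The day 4 libraries, library 1 included, lay above all day 3 libraries in each.

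**Figure D3:**
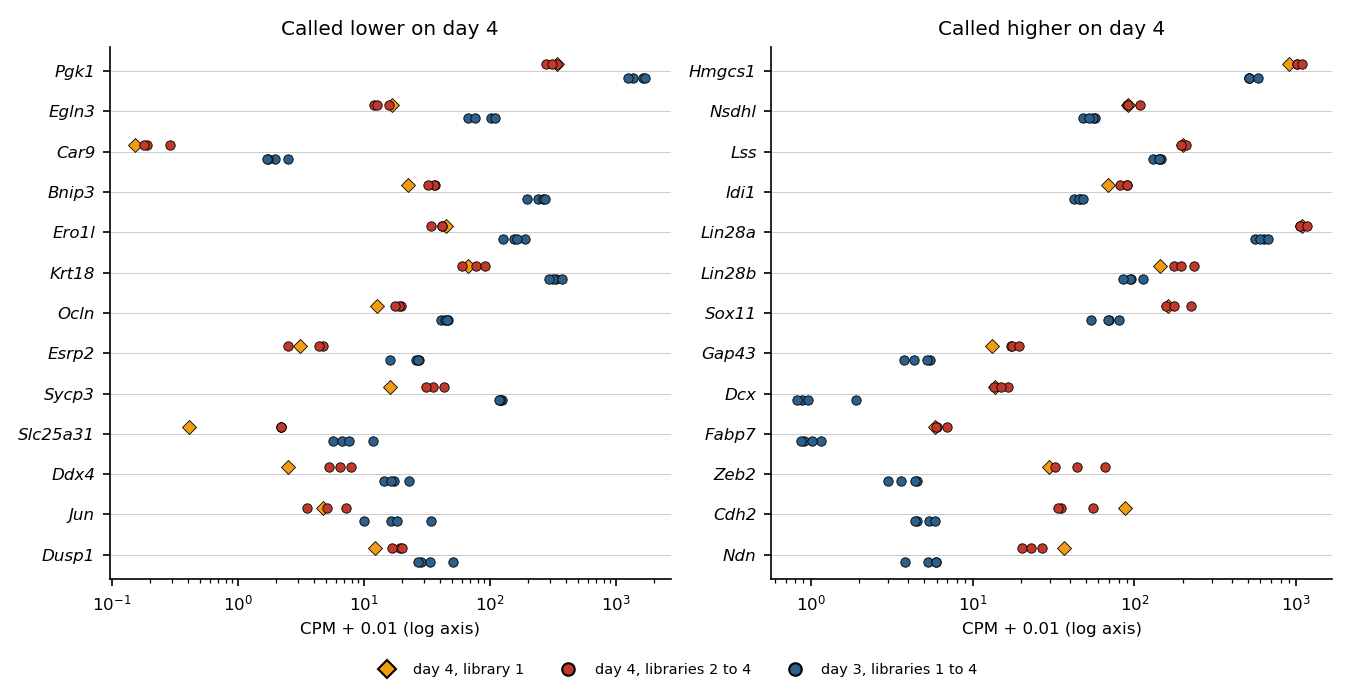
CPM plus 0.01 on a log axis in each library for 13 genes called lower (left panel: hypoxia, epithelial, germline and immediate early genes) and 13 called higher on day 4 (right panel: cholesterol, Lin28, neural, mesenchymal and imprinted genes). Orange diamonds are day 4 library 1, red circles day 4 libraries 2 to 4 and blue circles day 3, and library 1 lies on the same side of the day 3 values as the other day 4 libraries in all 26.

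Neural genes rose in part. Library 1 was the lowest day 4 library in 11 of 18 progenitor and 16 of 18 neuronal genes, against 5934 of all 16878. Of 18 pan-neural progenitor genes 7 were called higher and 1 lower, and of 18 neuronal genes 6 and 1, against 17.6% and 15.1% of all genes. The counts were the same without library 1. Sox1, the earliest factor of the neural plate, had 2.36, 3.25, 4.08 and 11.1 CPM in the day 4 libraries, against 0.198, 0.243, 0.205 and 0.345 CPM in the day 3 libraries (4.38 ± 0.64 (SE), adjusted p 2.01e-06). Sox11 had 161, 157, 175 and 223 CPM in the day 4 libraries, against 54.2, 70.2, 68.7 and 80.2 CPM in the day 3 libraries (1.39 ± 0.20 (SE), adjusted p 1.43e-06). Fabp7, a lipid carrier of radial glia, had 5.85, 6.01, 5.9 and 6.99 CPM in the day 4 libraries, against 0.904, 0.863, 1.15 and 1 CPM in the day 3 libraries (2.65 ± 0.41 (SE), adjusted p 4.66e-06). Gap43, a protein of growing axons, had 13.1, 17.3, 17.48 and 19.2 CPM in the day 4 libraries, against 5.48, 3.77, 5.25 and 4.34 CPM in the day 3 libraries (1.83 ± 0.25 (SE), adjusted p 5.2e-07). Dcx (doublecortin), of migrating neurons, had 13.8, 13.52, 16.54 and 14.9 CPM in the day 4 libraries, against 0.875, 0.809, 1.9 and 0.948 CPM in the day 3 libraries (3.69 ± 0.59 (SE), adjusted p 8.15e-06). Ebf1, an early B cell and neuronal factor, changed by a log2 of 2.48.

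Of 17 genes of the forebrain and anterior neural plate 7 were called higher and 0 lower, and 6 without library 1. Six3, a forebrain homeobox gene, had 0.374, 0.278, 0.968 and 0.77 CPM in the day 4 libraries, against 0, 0.0539, 0 and 0.0287 CPM in the day 3 libraries (adjusted p 5.82e-05), with only 3 counts in all day 3 libraries together. Hesx1, of the anterior neural plate, was lower in library 1 than in any day 3 library and higher in libraries 3 and 4, with 0.144, 0.362, 1.94 and 2.11 CPM in the day 4 libraries, against 0.339, 0.404, 0.461 and 0.488 CPM in the day 3 libraries (1.42 ± 0.74 (SE), adjusted p 0.146). Of 10 SoxB and Zic factors 5 were called higher with and without library 1. Sox3, of the SoxB family, was not called (log2 fold change 0.03 ± 0.26 (SE), adjusted p 0.94).

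Among 16 genes around Lin28 and its let-7 targets 5 were called higher with and without library 1, and 0 lower. Lin28a, an RNA-binding protein that blocks maturation of let-7, had 1083, 1055, 1051 and 1157 CPM in the day 4 libraries, against 628, 559, 599.5 and 666 CPM in the day 3 libraries (0.83 ± 0.14 (SE), adjusted p 2.86e-05). Lin28b rose by 0.95 on the log2 scale. Ccnd2, the D-type cyclin, had 267, 78.3, 45.9 and 103 CPM in the day 4 libraries, against 3.76, 4.83, 8.15 and 3.39 CPM in the day 3 libraries (4.62 ± 0.49 (SE), adjusted p 6.57e-09, and 3.91 without library 1). Fignl2, a let-7 target gene, rose by 1.86. Of 24 imprinted genes 10 were called higher and 4 lower, the same in both settings. Ndn (necdin) had 36.6, 20.3, 22.9 and 26.8 CPM in the day 4 libraries, against 5.28, 3.8, 5.94 and 5.97 CPM in the day 3 libraries (2.34 ± 0.23 (SE), adjusted p 7.06e-10). Igf2, the paternally expressed growth factor, had 15, 8.15, 11 and 20.4 CPM in the day 4 libraries, against 1.81, 2.08, 2.02 and 1.64 CPM in the day 3 libraries (2.85 ± 0.37 (SE), adjusted p 2.54e-07). Slc38a4, an imprinted amino acid transporter, moved the other way, with 66.9, 55.7, 48.8 and 51.9 CPM in the day 4 libraries, against 113, 119, 168 and 134 CPM in the day 3 libraries (-1.26 ± 0.21 (SE), adjusted p 1.47e-05).

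The pluripotency genes gave no common direction. Of 22 core and epiblast genes 4 were called higher and 2 lower, and 3 and 2 without library 1. Pou5f1 (Oct4) had 1137, 743, 810.0 and 506 CPM in the day 4 libraries, against 898, 702, 818 and 735 CPM in the day 3 libraries. Fgf5, the marker of the primed epiblast, had 218, 103, 102 and 91.6 CPM in the day 4 libraries, against 104, 98, 94.3 and 106 CPM in the day 3 libraries. Otx2, which drives the move from naive to primed pluripotency, had 76.5, 138, 166 and 128 CPM in the day 4 libraries, against 225, 232, 162 and 183 CPM in the day 3 libraries. For these 3 genes the groups overlapped, and the log2 fold changes were 0.02 ± 0.58 (SE), adjusted p 0.988 for Pou5f1, 0.35 ± 0.33 (SE), adjusted p 0.442 for Fgf5 and -0.66 ± 0.38 (SE), adjusted p 0.191 for Otx2. Pou3f1 was not called either (-0.60 ± 0.30 (SE), adjusted p 0.127).

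Nanog stood higher on day 4, with 297, 253, 189 and 229 CPM in the day 4 libraries, against 144, 115, 89 and 99.1 CPM in the day 3 libraries, and the groups did not overlap. Its call held with library 1 (1.12 ± 0.39 (SE), adjusted p 0.0262) and not without it (1.003 ± 0.42 (SE), adjusted p 0.0684), and it was also lost when day 4 library 2 or day 3 library 2, 3 or 4 was left out (adjusted p 0.0501 to 0.0803). Sox2 was low in library 1 alone, with 5.82, 36.1, 33.5 and 33.6 CPM in the day 4 libraries, against 16, 28.4, 22.5 and 24.9 CPM in the day 3 libraries, where library 1 lay below and the other 3 above every day 3 library (0.25 ± 0.32 (SE), adjusted p 0.596 with and 0.58 ± 0.25 (SE), adjusted p 0.0749 without library 1). Of 20 naive genes 6 were called lower and 0 higher, with 5 lower and 1 higher without library 1. They included Stat3, the mediator of LIF (18.8, 14, 11.2 and 9.04 CPM in the day 4 libraries, against 41.7, 36.9, 30.8 and 36.9 CPM in the day 3 libraries), the chromatin protein Dppa4 (2.65, 45.7, 26.9 and 20.5 CPM on day 4, against 77.8, 91.8, 127 and 93.3 CPM on day 3) and Spp1 (osteopontin, -2.01 ± 0.55 (SE), adjusted p 0.00493). Klf4, Esrrb and Zfp42, markers of the naive state, were not called (-0.18, -0.40 and -0.59).

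Wnt signalling genes rose both with and without library 1. Of 20 targets and feedback genes of Wnt/β-catenin 15 were called higher and 0 lower, against 17.6% of all genes called higher. Without library 1 the count was 13 higher, and the median log2 fold changes were 1.83 with and 1.19 without it. Axin2, the standard feedback target, had 120.0, 44, 36.8 and 45 CPM in the day 4 libraries, against 20.5, 19.3, 13.8 and 18.7 CPM in the day 3 libraries (1.77 ± 0.31 (SE), adjusted p 3.65e-05, and 1.22 ± 0.28 (SE), adjusted p 0.000954 without library 1). Sp8, a relative of Sp5, had 58.7, 24.4, 23.1 and 35.6 CPM in the day 4 libraries, against 2.85, 2.32, 2.38 and 1.61 CPM in the day 3 libraries (3.95 ± 0.32 (SE), adjusted p 1.39e-11). Nkd1, a feedback inhibitor inside the cell, had 40.9, 10.9, 12.6 and 20.8 CPM in the day 4 libraries, against 4.75, 3.75, 3.2 and 3.5 CPM in the day 3 libraries (2.49 ± 0.36 (SE), adjusted p 1.58e-06). Dkk1, a secreted inhibitor, had 20.8, 3.12, 1.42 and 3.14 CPM in the day 4 libraries, against 0.311, 0.296, 0.41 and 0.373 CPM in the day 3 libraries (4.34 ± 0.65 (SE), adjusted p 2.81e-06, and 2.87 ± 0.51 (SE), adjusted p 5.91e-05 without library 1). Lef1, the transcription factor partner of β-catenin, rose by 1.42 with and 1.01 without library 1. Library 1 was the highest day 4 library in 19 of the 20, against 6222 of all 16878 genes. In each gene named here the other 3 also lay above day 3.

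The promoters of T and Sp5 are printed because both genes are known targets and both hold CTTTGA, the core that TCF/LEF factors bind. They are again from RefSeq on GRCm38 (mm10), over the same span and strand rule, with CTTTGA or its reverse complement TCAAAG in capitals. T is at chr17:8434173-8434472 (plus strand) with 1 match, and Sp5 at chr2:70474673-70474972 (plus strand) with 2.
T: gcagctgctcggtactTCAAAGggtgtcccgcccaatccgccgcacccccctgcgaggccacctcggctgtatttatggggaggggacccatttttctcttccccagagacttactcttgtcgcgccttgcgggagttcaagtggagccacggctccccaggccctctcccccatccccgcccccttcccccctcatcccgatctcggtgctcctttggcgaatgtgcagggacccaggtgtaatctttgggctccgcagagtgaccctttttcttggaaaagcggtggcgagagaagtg
Sp5: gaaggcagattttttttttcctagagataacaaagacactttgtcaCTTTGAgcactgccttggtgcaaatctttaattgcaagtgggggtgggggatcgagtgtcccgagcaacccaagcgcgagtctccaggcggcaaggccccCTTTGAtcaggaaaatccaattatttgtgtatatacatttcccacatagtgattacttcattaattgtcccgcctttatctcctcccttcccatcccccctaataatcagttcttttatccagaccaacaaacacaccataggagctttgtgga
Of the 14 list members that have a promoter there, 5 held the core on either strand, and all 5 were among the 11 members with a promoter that were called higher. The shares were 14.7% over the tested genes and 18.2% over all genes with a promoter.

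Of 19 Wnt ligand genes 11 were called higher and 0 lower, against 17.6% of all genes called higher, and 5 were called higher without library 1. Wnt8a had 183, 102, 57.1 and 75.9 CPM in the day 4 libraries, against 8.36, 5.2, 6.71 and 7.58 CPM in the day 3 libraries (3.91 ± 0.70 (SE), adjusted p 4.71e-05). Wnt5a, a ligand of the non-canonical branch, had 11.9, 5.93, 4.81 and 6.16 CPM in the day 4 libraries, against 0.932, 0.836, 1.25 and 0.431 CPM in the day 3 libraries (3.04 ± 0.38 (SE), adjusted p 1.57e-07), and both kept their calls without library 1. Wnt2b rose by 5.67 with and 4.72 without it, from 5 counts over the day 3 libraries. Wnt3, the ligand that starts streak formation in the embryo, had 59.5, 10.1, 6.56 and 7.47 CPM in the day 4 libraries, against 6.3, 3.05, 2.87 and 3.02 CPM in the day 3 libraries. Wnt3a, which acts in the streak and tail bud, had 15.8, 0.195, 0.181 and 0.485 CPM in the day 4 libraries, against 0, 0.027, 0.179 and 0.0287 CPM in the day 3 libraries. Their calls rested on library 1, with log2 fold changes of 2.46 ± 0.57 (SE), adjusted p 0.00105 in Wnt3 and 6.02 ± 1.37 (SE), adjusted p 0.000813 in Wnt3a, against 1.08 ± 0.48 (SE), adjusted p 0.0875 and 2.17 ± 1.35 (SE), adjusted p 0.238 without it.

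Genes of the caudal epiblast, from which trunk and tail grow, gave 15 of 17 called higher and 0 lower, against 17.6% of all genes called higher. Without library 1 the count was 11 higher. Library 1 was the highest day 4 library in all 17, against 6222 of all 16878 genes. Cdx2 had 10.7, 0.918, 0.121 and 0.627 CPM in the day 4 libraries, against 0, 0.027, 0.0256 and 0 CPM in the day 3 libraries (adjusted p 9.85e-05), with 2 counts over the day 3 libraries, so no fold is given. Cdx1, the other caudal homeobox gene, had 31.4, 1.59, 0.151 and 0.542 CPM in the day 4 libraries, against 0.0565, 0.027, 0.128 and 0 CPM in the day 3 libraries. Its call was lost without library 1 (3.73 ± 1.45 (SE), adjusted p 0.0505). Fgf8, the growth factor of the streak, had 42.7, 6.79, 4.11 and 5.85 CPM in the day 4 libraries, against 7.06, 3.53, 2.31 and 4.57 CPM in the day 3 libraries, and libraries 2 to 4 lay within the day 3 range (1.77 ± 0.58 (SE), adjusted p 0.0167 with and 0.36 ± 0.49 (SE), adjusted p 0.634 without library 1, and 0.0651 without day 3 library 3).

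The Hox genes that rose on day 4 were mostly those of the 3′ end of the clusters, which open first in the embryo. Called higher were 6 of 12 genes of paralogue groups 1 to 4, and 5 without library 1. Hoxb1 had 5.44, 1.89, 0.272 and 0.656 CPM in the day 4 libraries, against 0, 0, 0.0769 and 0 CPM in the day 3 libraries (adjusted p 8.15e-06). Hoxa2 had 0.806, 0.863, 0.0907 and 0.599 CPM in the day 4 libraries, against 0, 0.027, 0.0256 and 0.0287 CPM in the day 3 libraries (adjusted p 0.000265). Hoxd1 had 0.195 to 0.576 CPM on day 4, against 0 to 0.0282 CPM on day 3 (adjusted p 0.000365). The day 3 libraries together held at most 3 counts of Hoxb1, Hoxa2 and Hoxd1, so folds are not given, and all 3 kept their calls without library 1. Hoxd8, with 0 to 0.111 CPM on day 4 and 0 counts on day 3, was the 1 called of 14 genes of groups 5 to 9, of which 0 were called without library 1. The Hoxd8 call was also lost without any other of the 8 libraries except day 4 library 3 (adjusted p 0.0528 to 0.152). The summed level of the 14 was 0.432 CPM in library 1, 0.121 to 0.556 CPM in libraries 2 to 4 and 0.198 to 0.944 CPM on day 3. Hoxd13, at the 5′ end of its cluster and named after its values were seen, had 0.547, 0.779, 0.665 and 0.57 CPM in the day 4 libraries, against 0.311, 0.324, 0.359 and 0.287 CPM in the day 3 libraries. It was called higher with library 1 (0.99 ± 0.36 (SE), adjusted p 0.0334) and without it (1.06 ± 0.39 (SE), adjusted p 0.0376).

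**Figure D4:**
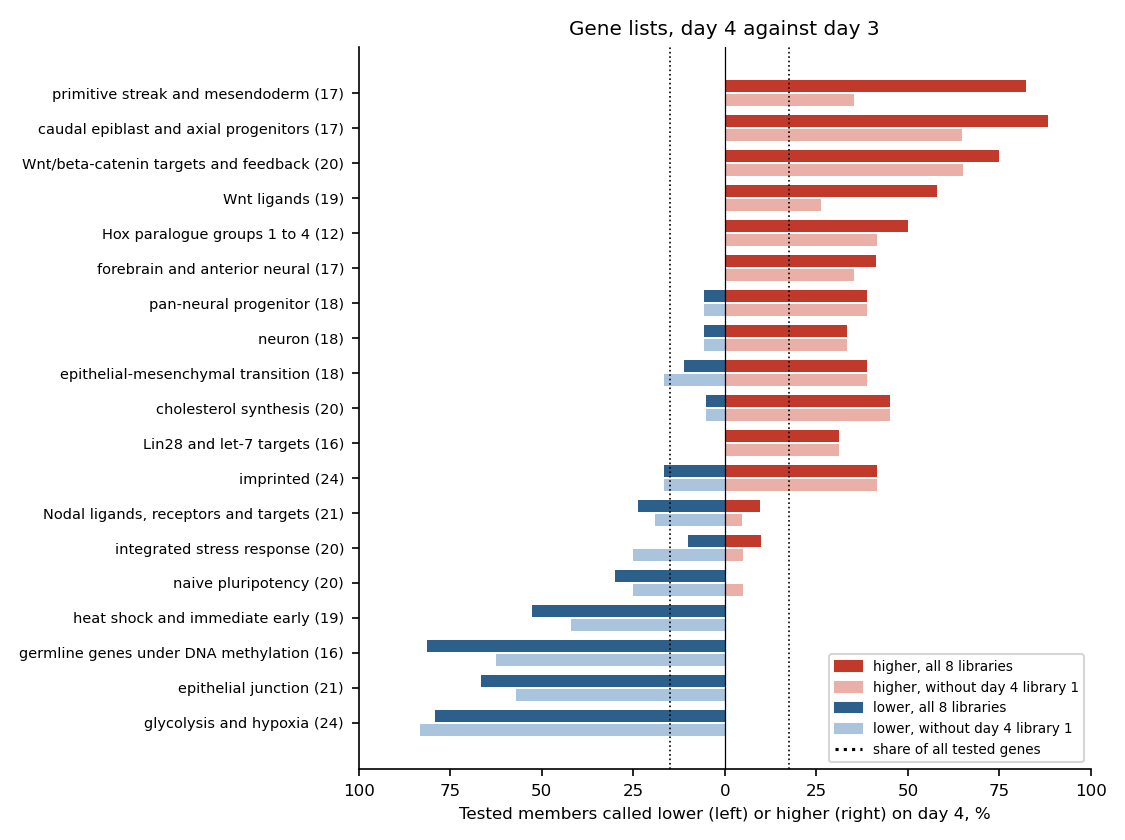
Share of the tested members of 19 gene lists that were called higher (right, red) or lower (left, blue) on day 4, with all 8 libraries (dark bars) and without day 4 library 1 (light bars), with the number tested in brackets and the share of all tested genes as dotted lines. The primitive streak list has 14 of 17 members called higher with library 1 and 6 without it, while the bars of glycolysis and hypoxia, cholesterol synthesis, imprinted and neural genes hardly move.

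The primitive streak list depended most on library 1. Of 17 tested members 14 were called higher with it and 6 without it, and the median log2 fold change was 4.39 with it and 1.14 without. Library 1 was the highest day 4 library in all 17, against 6222 of all 16878 genes. The summed level of the 17 was 1454 CPM in library 1, 166 to 269.6 CPM in libraries 2 to 4 and 79.95 to 132 CPM on day 3. The 6 that kept their calls were Eomes, Sp5, T, Mixl1, Evx1 and Foxa2. With library 1 in, the fit of only the 8 libraries with the replicate number as a block did not call T, Mixl1 and Foxa2 (adjusted p 0.0999 in T, 0.0818 in Mixl1 and 0.0507 in Foxa2). Eomes, the T-box factor of mesendoderm, had 343, 133, 81.9 and 106 CPM in the day 4 libraries, against 9.01, 7.71, 8.27 and 6.78 CPM in the day 3 libraries, high in all 4 day 4 libraries (4.39 ± 0.53 (SE), adjusted p 7.98e-08 with and 3.75 ± 0.49 (SE), adjusted p 4.7e-07 without library 1). Foxa2, of the anterior streak and endoderm, had 31.9, 3.03, 2.57 and 3.28 CPM in the day 4 libraries, against 1.13, 1.16, 0.384 and 1.47 CPM in the day 3 libraries (3.31 ± 0.62 (SE), adjusted p 7.85e-05 with and 1.52 ± 0.46 (SE), adjusted p 0.0112 without).

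The other 8 lost their calls. In a fit of only the 8 libraries, whose spread includes library 1 and no other group, the calls of Lhx1, Cer1, Mesp1, Wnt3, Wnt3a and Fgf8 were lost with library 1 in (adjusted p 0.143 in Lhx1, 0.15 in Cer1, 0.0922 in Mesp1, 0.0556 in Wnt3, 0.0627 in Wnt3a and 0.144 in Fgf8). Lhx1, a LIM homeobox factor of anterior mesendoderm, had 58.6, 0.334, 0.212 and 0.371 CPM in the day 4 libraries, against 0.791, 0.593, 0.487 and 0.632 CPM in the day 3 libraries, so libraries 2 to 4 lay below every day 3 library. The fold change on the log2 scale was 4.57 ± 1.01 (SE), adjusted p 0.000582 with and -1.01 ± 0.66 (SE), adjusted p 0.264 without library 1. Gsc (goosecoid), of the organiser, had 7.8, 0.445, 0.363 and 0.285 CPM in the day 4 libraries, against 0.17, 0.0539, 0.0769 and 0.115 CPM in the day 3 libraries (4.39 ± 0.87 (SE), adjusted p 0.000156 with and 1.79 ± 0.69 (SE), adjusted p 0.0503 without). Cer1, a secreted antagonist of Nodal and BMP, had 9.45, 0, 0 and 0.057 CPM in the day 4 libraries, against 0.113, 0, 0.0512 and 0.172 CPM in the day 3 libraries. Mesp1, of nascent mesoderm, had 1.81, 0.0556, 0 and 0 CPM in the day 4 libraries, against 0, 0, 0.0256 and 0 CPM in the day 3 libraries. In both genes libraries 2 to 4 held hardly any counts. The endoderm factor Sox17, of another list, had 1.99, 0.111, 0.0605 and 0 CPM in the day 4 libraries, against 0.0282, 0.108, 0.0769 and 0.115 CPM in the day 3 libraries. Its call was lost without library 1 (adjusted p 0.0256 with and 0.783 without) and without day 3 library 1 or 3 (adjusted p 0.0697 and 0.0599). Gata4 lost its call without library 1 (adjusted p 0.00464 with and 0.265 without library 1), and Gata6 kept its call (4.11 ± 0.81 (SE), adjusted p 0.000142 with and 1.83 ± 0.67 (SE), adjusted p 0.0367 without).

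Genes outside the streak list moved with library 1 too. Aplnr, the apelin receptor of early mesoderm, had 80.2, 3.62, 3.48 and 6.3 CPM in the day 4 libraries, against 0.537, 0.27, 0.256 and 0.431 CPM in the day 3 libraries. Alox15, a lipoxygenase, had 88.2, 7.65, 4.81 and 4.99 CPM in the day 4 libraries, against 0.508, 0.809, 0.897 and 0.632 CPM in the day 3 libraries. Both were called without library 1 as well (3.58 ± 0.52 (SE), adjusted p 2.58e-06 and 3.02 ± 0.54 (SE), adjusted p 6.19e-05). Mab21l2 had 19, 1.98, 1.18 and 1.4 CPM in the day 4 libraries, against 0.198, 0.0539, 0.128 and 0.23 CPM in the day 3 libraries (5.25 ± 1.25 (SE), adjusted p 0.00129 with and 3.30 ± 1.19 (SE), adjusted p 0.0359 without). It shares 1097 exonic bases with Lrba on the other strand, which had means of 91.8 CPM on day 4 and 90.2 CPM on day 3. Chac1, a glutathione-degrading enzyme induced by the integrated stress response, had 141, 13.3, 9.37 and 9.41 CPM in the day 4 libraries, against 4.43, 18.6, 17.2 and 32.2 CPM in the day 3 libraries, and was not called in either setting (1.26 ± 0.89 (SE), adjusted p 0.295 with and -0.76 ± 0.86 (SE), adjusted p 0.55 without).

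The integrated stress response list as a whole was high in library 1. Its 20 members summed to 5265 CPM there, against 2196 to 2720 CPM in libraries 2 to 4 and 2504 to 3596 CPM on day 3, and library 1 was the highest day 4 library in 19 of 20. The calls were 2 higher and 2 lower with library 1, and 1 higher and 5 lower without it. Atf5, a factor of this response, had 99, 41.6, 34.1 and 32.4 CPM in the day 4 libraries, against 12.7, 13.3, 17.2 and 13.2 CPM in the day 3 libraries (1.88 ± 0.25 (SE), adjusted p 5.32e-07, and 1.35 without library 1). Nupr1 had 4.92, 5.29, 3.15 and 3.17 CPM in the day 4 libraries, against 12.8, 19.2, 30.2 and 14 CPM in the day 3 libraries (-2.21 ± 0.38 (SE), adjusted p 2.28e-05), and both kept their calls without library 1. The part of this list in the other changes of library 1 was not tested.

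The Nodal genes held calls in both directions, at a joint share near the 32.7% of all genes, in a medium that held Activin-A throughout. Of 21 tested 2 were called higher and 5 lower, against 17.6% and 15.1% of all genes. Without library 1 the counts were 1 and 4, against 15.1% and 13.1%. Fst (follistatin), which binds Activin, had 467, 159, 92.7 and 158 CPM in the day 4 libraries, against 18.9, 13.2, 13 and 15.2 CPM in the day 3 libraries (3.86 ± 0.36 (SE), adjusted p 4.23e-10, and 3.18 without library 1). Lefty1, a feedback inhibitor of Nodal, fell to 30.5, 83.2, 43.1 and 39.8 CPM on day 4, against 291, 199, 161 and 257 CPM on day 3 (-2.21 ± 0.56 (SE), adjusted p 0.0025). Lefty2, its relative, was also lower (-1.47 ± 0.48 (SE), adjusted p 0.0173, and 0.064 and 0.0535 without day 4 library 3 or 4). Smad7, the inhibitory Smad, was lower as well (-1.25 ± 0.27 (SE), adjusted p 0.000493). Nodal itself had 84.5, 79.3, 52.4 and 42.1 CPM in the day 4 libraries, against 104, 101.4, 61.1 and 108 CPM in the day 3 libraries (-0.54 ± 0.41 (SE), adjusted p 0.332). The Nodal co-receptor gene Tdgf1 had 421, 158, 63.6 and 66.9 CPM in the day 4 libraries, against 304, 284, 288 and 254 CPM in the day 3 libraries, with library 1 above and the other 3 below every day 3 library (-0.67 ± 0.59 (SE), adjusted p 0.415 with and -1.55 ± 0.61 (SE), adjusted p 0.0547 without library 1).

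FGF and BMP genes gave calls both ways. Of 14 FGF ligands 6 were called higher and 2 lower, against 17.6% and 15.1% of all genes, and 4 and 1 without library 1. Fgf4, the ligand made by pluripotent cells, had 4.09, 31.3, 22.9 and 19 CPM in the day 4 libraries, against 62.6, 89.8, 74.5 and 82.3 CPM in the day 3 libraries (-2.0 ± 0.51 (SE), adjusted p 0.00247). Fgf1 had 2.25, 1.14, 1.21 and 1.57 CPM in the day 4 libraries, against 0.17, 0.189, 0.231 and 0.172 CPM in the day 3 libraries (2.99 ± 0.37 (SE), adjusted p 1.01e-07). Fgf9 rose by 2.07 on the log2 scale. Of 18 genes of ERK feedback and FGF response 6 were called higher and 5 lower, and 3 and 5 without library 1, among them Etv1, an ETS factor (64.1, 63.2, 60.2 and 65.7 CPM in the day 4 libraries, against 11.4, 11.7, 23.5 and 16.6 CPM in the day 3 libraries, 2.0 ± 0.24 (SE), adjusted p 6.82e-08), and Spred1, an inhibitor of ERK signalling (log2 fold change 1.04). Of 20 BMP genes 6 were called higher and 1 lower, against 17.6% and 15.1% of all genes, and 4 and 1 without library 1, against 15.1% and 13.1%. They include Id1, a direct target of BMP (4.84, 2.06, 3.51 and 4.76 CPM in the day 4 libraries, against 0.395, 0.701, 0.717 and 0.574 CPM in the day 3 libraries, 2.65 ± 0.39 (SE), adjusted p 1.93e-06), and the ligand Bmp5 (log2 fold change 5.36, from 7 counts over the day 3 libraries).

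Of 13 primordial germ cell genes 3 were called higher and 6 lower, and 3 and 4 without library 1. Kit, the receptor of stem cell factor, had 120.4, 62.9, 55.3 and 72 CPM in the day 4 libraries, against 22.7, 21.7, 12.2 and 21.1 CPM in the day 3 libraries (2.0 ± 0.22 (SE), adjusted p 9.1e-09).

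The presomitic and somitic, Notch and matrix lists gave shares of calls near that of all genes, which was 32.7%. The other lists given here had other shares. Of 18 cardiac and anterior mesoderm genes 6 were called higher and 4 lower, and 4 and 3 without library 1. Of 16 endothelial and blood precursor genes 5 and 2 were called, and 2 and 1 without library 1. Of 18 lateral and extraembryonic mesoderm genes 3 and 2 were called, and 2 and 2 without library 1. Of 20 genes of presomitic and somitic mesoderm 5 were called higher and 2 lower, and 5 and 1 without library 1, with Pcdh8, a protocadherin (19.7, 10.54, 6.38 and 8.9 CPM in the day 4 libraries, against 0.847, 1.19, 1.13 and 2.01 CPM in the day 3 libraries), and Rspo3, a secreted enhancer of Wnt signals (19, 6.43, 7.65 and 7.79 CPM in the day 4 libraries, against 0.339, 0.108, 0.41 and 0.402 CPM in the day 3 libraries), leading the list. Kdr, the VEGF receptor of mesodermal and endothelial cells, had 6.11, 4.31, 2.57 and 8.36 CPM in the day 4 libraries, against 0, 0.135, 0.128 and 0.201 CPM in the day 3 libraries (5.48 ± 0.86 (SE), adjusted p 5.79e-06). Prrx1, a factor of lateral mesoderm, had 0.922, 1.53, 1.51 and 6.5 CPM in the day 4 libraries, against 0, 0.027, 0.0256 and 0.0574 CPM in the day 3 libraries (6.41 ± 0.87 (SE), adjusted p 5.76e-07). The day 3 libraries together held 4 counts of Prrx1, so the size of its fold is uncertain. Of 18 Notch genes 2 were called higher and 4 lower, led by the ligand Jag2 (-1.38 ± 0.26 (SE), adjusted p 7.35e-05), and of 16 node, notochord and Hedgehog genes 7 and 1, or 6 and 1 without library 1, with Gli2, an effector of Hedgehog signals, at 1.495 ± 0.25 (SE), adjusted p 1.67e-05. Of 21 matrix genes 6 were higher and 1 lower, and 6 and 2 without library 1, where Nid2 (nidogen) fell to 102, 99.8, 88.2 and 70.9 CPM on day 4, against 280.3, 273, 211 and 234 CPM on day 3, and Fbn2 (fibrillin) rose by 1.98 on the log2 scale.

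Housekeeping lists had 0 genes called higher. Called lower were 2 of 24 cytosolic ribosomal protein genes, 2 of 24 nuclear genes of the respiratory chain, 1 of 20 S phase genes and 5 of 20 genes of G2 and mitosis, against 15.1% of all genes. Without library 1 the counts were 1, 2, 1 and 3, against 13.1%.

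The side of library 1 was compared with day 5, whose levels enter no contrast of the step, although its libraries share the scaling, the filter and the estimate of spread. In library 1, 69 genes of at least 5 CPM lay 4-fold or more above each of the other 3 day 4 libraries, and 41 lay 4-fold or more below them, against 0 to 1 genes on either side in each of the other day 4 libraries and in each of the 4 day 3 libraries. Other number 1 libraries also stood apart within their groups, with 17 genes above and 1 below on day 5 and 10 above and 1 below in XAV939 aggregates on day 4. All 69 had a day 5 mean above the other 3 day 4 libraries, as 36.4% of all tested genes did, and 40 of the 41 had a day 5 mean below them, as 32.8% of all tested genes did. Of the 69, 49 were called higher on day 4 and 20 were not called. They included 13 of the 17 streak genes and 9 of the 17 caudal ones.

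The day 5 levels of T and Lhx1 were nearer to day 4 library 1 than to libraries 2 to 4, and this did not hold for every streak gene. T had 283, 490.4, 435 and 372 CPM in the 4 day 5 libraries, against 549.5 CPM in day 4 library 1 and 11.8 to 24.6 CPM in libraries 2 to 4. Lhx1 had 126, 134, 121 and 36 CPM on day 5, against 58.6 CPM in day 4 library 1 and 0.212 to 0.371 CPM in the other 3. Mixl1, in contrast, was higher in day 4 library 1 (167 CPM) than in any day 5 library (50.9 to 85.6 CPM), as were Wnt3 (59.5 CPM, against 13.2 to 22.2 CPM on day 5) and Eomes (343 CPM, against 83.5 to 169.5 CPM on day 5). The day 5 range of Eomes overlapped that of day 4 libraries 2 to 4 (81.9 to 133 CPM).

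Genes that were low in library 1 were mostly low on day 5 as well. Dnmt3l, the cofactor of the de novo methyltransferases, had 0.173, 16.2, 7.38 and 7.5 CPM in the day 4 libraries, against 4.86, 13.6, 11.50 and 8.07 CPM in the day 3 libraries, and 0.777, 9.65, 0.989 and 3.95 CPM in the day 5 libraries. Dppa2, a partner of Dppa4 that was named after its values were seen, had 0.432 CPM in day 4 library 1, 7.17 to 17.7 CPM in libraries 2 to 4 and 7.48 to 16.4 CPM on day 3, with 0.763 to 6.4 CPM on day 5. The meiotic gene Hormad1 had 0.0864 CPM in library 1, against 2.87 to 7.96 CPM in the other 3, and the germ cell factor Sohlh2 had 0, 1.86, 0.877 and 0.827 CPM in the day 4 libraries, against 6.47, 7.84, 9.89 and 6.58 CPM in the day 3 libraries (-3.10 ± 0.67 (SE), adjusted p 0.00044, called without library 1 as well). Dnmt3l, Dppa2 and Hormad1 were not called in either setting. Sox2, at 5.82 CPM in library 1, was not low on day 5, where it had 30.2, 28.3, 28.3 and 28.5 CPM.

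**Figure D5:**
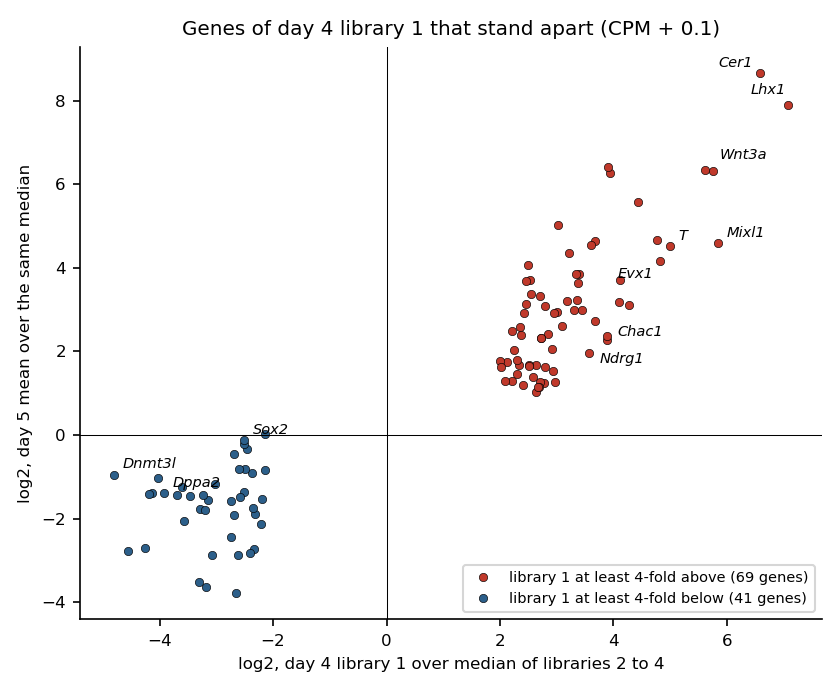
Each point is 1 of the 110 genes that stood 4-fold or more apart in day 4 library 1, with the log2 ratio of library 1 to the median of day 4 libraries 2 to 4 (horizontal axis) against the log2 ratio of the day 5 mean to the same median (vertical axis), on CPM plus 0.1. The 69 genes that were high in library 1 (red) have day 5 ratios of 1.02 to 8.67, and the 41 that were low (blue) of -3.78 to 0.02.

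Markers of endoderm, trophoblast, fibroblasts and 2-cell-like cells gave small sums beside those of the epiblast. The 7 primitive streak markers did not in library 1, where they summed to 1150 CPM, against 104 to 174 CPM in libraries 2 to 4. On day 3 they summed to 14.4 to 23.7 CPM. Naive, germ cell and neural markers summed to 33.2, 7.15 and 3.34 CPM in library 1. In libraries 2 to 4 these sums were 37 to 82, 9.77 to 20 and 5.21 to 15.4 CPM. The marker sums of this paragraph use library totals without the TMM scaling, while the levels of single genes are scaled. The 10 markers of visceral or primitive endoderm summed to 22.9 CPM in library 1, 15.9 to 17.2 CPM in libraries 2 to 4 and 11.3 to 12.3 CPM on day 3. Among them, Afp, Amn, Ttr and Apoa1 were at 0 to 0.151 CPM on day 4 and 0 to 0.205 CPM on day 3. Dab2 had 10.3 to 14.9 CPM on day 4, against 6.25 to 8.59 CPM on day 3. Cubn was lower on day 4, with 0.518 to 1.54 CPM against 3.59 to 6.43 CPM. Gata6, Gata4 and Sox17 had 6.16, 3.8 and 1.99 CPM in library 1, against at most 0.169, 0.307 and 0.115 CPM on day 3. Of the 7 trophoblast markers Prl3d1 and Tpbpa had 0 counts in all 8 libraries, which allows up to 0.0886 CPM in a library (3 counts), for counting error only. All 7 summed to 35.1 CPM in library 1, 6.0 to 10.9 CPM in libraries 2 to 4 and 15.5 to 21.9 CPM on day 3, where Cdx2, which the caudal epiblast also expresses, and Tfap2c, which germ cells also express, made up most of library 1 (10.7 and 17 CPM). The 5 markers of 2-cell-like cells summed to at most 0.307 CPM. Of 6 fibroblast markers Postn was at 0 to 0.0556 CPM and the sum was 33.8 CPM in library 1, 22.8 to 34.7 CPM in libraries 2 to 4 and 52.4 to 74.3 CPM on day 3. Thy1 had 9.68 to 29.1 CPM on day 4, against 45.9 to 62.8 CPM on day 3. Pdgfrb had 18.2 CPM in library 1, against 2.51 to 5.65 CPM on day 3. The 8 epiblast markers summed to 3270 CPM in library 1, 2640 to 3920 CPM in libraries 2 to 4 and 2760 to 3630 CPM on day 3. The labels call the cells only differentiated embryonic stem cells.

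The same step in XAV939 aggregates gave 3428 genes called higher and 2984 lower. No gene was called when the untreated step was tested against it (0 of 16878 higher, 0 lower, which is 0%), with 491 genes at an unadjusted p below 0.05, and DESeq2 gave 0 calls with 567 such genes. The number of such genes depended on the setting, from 303 without the untreated day 4 library 1 to 1492. The 1492 came from a fit that matched same-numbered libraries separately for each day, and limma with library weights gave 1093. Both also gave 0 calls. The lack of calls does not show that the steps were alike. At 5 genes named above the XAV939 step had the same sign as the untreated one, with log2 fold changes of 7.85 in Frzb, 9.84 in Foxb1, 6.54 in Nkx1-2, -2.41 in Pgk1 and -3.05 in Bnip3. Foxb1 had 0, 0.0602, 0.0304 and 0 CPM in the day 3 XAV939 libraries, so the size of its fold there is uncertain. For the genes that library 1 moved most the values differ in size. T had 2.59, 7.8, 3.17 and 7.03 CPM in the day 4 XAV939 libraries (a step of 2.64, and a difference of steps of 3.71 ± 1.24 (SE), adjusted p 1), Mixl1 had 0.511, 1.1, 0.576 and 0.942 CPM (a step of 0.87, difference 5.70 ± 1.53 (SE), adjusted p 1). Without the untreated library 1 the differences of steps were 0.64 in T and 1.83 in Mixl1 (adjusted p 1 in both). Lhx1 had 0.451, 0.732, 0.432 and 0.188 CPM (a step of -0.54).

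The number 1 library of day 4 XAV939 aggregates was looked at for the same genes. Of the 69 genes high in the untreated library 1 it was the highest XAV939 library in 29 and stood 4-fold above the other 3 in 5, and of the 41 low genes it was the lowest in 27 and 4-fold below in 1. How often it was the highest or lowest over all tested genes was not counted, so these counts have no background share beside them. Chac1 stood 4-fold above in both number 1 libraries, with 127, 14, 11.2 and 8.29 CPM in XAV939 libraries 1 to 4.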

How the data were processed

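Poly(A) RNA of 40 libraries was sequenced. Per the labels' protocols, Trizol was used for extraction, TruSeq stranded libraries were made from 300 ng and 81-base pairs were read on a HiSeq 4000, and per the submitters' processing notes bcl2fastq 2.20.0 and the build mm10 were used. For the aligner, the counter, the annotation and the strand setting, nothing is given in the sources used here. The authors deposited raw counts per gene (26906 genes, all 40 columns used, columns matched by titles) with no normalisation, and totals ran from 30197759 to 44086019 per library. Among the 12 pairs of libraries within the untreated day 4 and day 3 groups chi-square per gene was at least 16.3, so none was a copy.

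edgeR 4.0.16 (R 4.3.3) was run with filterByExpr (minimum count 10, total 15), TMM, and 1 robust quasi-likelihood fit of all 40 libraries with a mean for each group (30 residual degrees of freedom), with calls where the p adjusted by Benjamini-Hochberg was below 0.05. The step was day 4 minus day 3, and the untreated step was set against the XAV939 step by an interaction contrast. Alternatives used limma 3.58.1 and DESeq2 1.42.0, other filters and scalings, and each library left out. The steps were tested on simulated data.

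Named genes were the 12 largest rises and falls called with and without day 4 library 1 (at least 5 CPM in the higher group, no overlap), the genes that library 1 moved most, the members with the smallest adjusted p of each list (by mean level if fewer than 2 passed), with a fixed marker panel, named from the top. The members and lists were chosen with earlier results of these data known. Exon overlaps come from GENCODE M21 (26881 of 26906 identifiers matched), promoters from RefSeq. Not every overlap is given with its gene. Others on opposite strands include Sycp3 with Chpt1 (660 exonic bases), Nid2 with Rtraf (437) and Aire with Dnmt3l (67). Some genes that the rule names are not reported here.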

Additional observations from a re-analysis of the deposited data

Results flagged for a closer look

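For each named gene the 4 values of a group were screened for a library whose gap to its nearest neighbour, on log2(CPM + 0.1), was above 0.829 of the range of the group. Of 294 groups of values 37 passed, where chance gives about 5% for genes chosen without regard to these values. The named genes include those that day 4 library 1 moved most, so 5% is no measure for its flags. Day 4 library 1 accounted for 18 of them (14 high, 4 low), other day 4 libraries for 4 and day 3 libraries for 15.

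Day 4 library 1 was far above the other 3 in Mixl1 (167 CPM), Evx1 (37.1 CPM), Lhx1 (58.6 CPM), Alox15 (88.2 CPM), Chac1 (141 CPM), Fgf5 (217.7 CPM), Gsc (7.80 CPM), Mesp1 (1.81 CPM), Foxa2 (31.9 CPM), Cer1 (9.45 CPM), Axin2 (120.0 CPM), Gata4 (3.80 CPM), Vegfa (50.5 CPM) and Rtl8a (19.7 CPM). It was far below them in Krt12 (0.0576 CPM), Il10 (0.0288 CPM), Sox2 (5.82 CPM) and Slc25a31 (0.403 CPM). On day 5 Sox2 had 28.3 to 30.2 CPM, against 33.5 to 36.1 CPM in day 4 libraries 2 to 4, and Fgf5 had 73.5 to 148 CPM, against 91.6 to 103 CPM.

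The other day 4 cases were 2510009E07Rik (28.9 CPM), Nsdhl (108 CPM) and Fabp7 (6.99 CPM), high in library 4, and Fosb (0.39 CPM), high in library 2.

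On day 3 the values that stood apart were those of Wnt3 (6.30 CPM, high) and Esrp2 (16.2 CPM, low) in library 1, Aire (13.8 CPM, high), Vegfa (40.95 CPM, high) and Rspo3 (0.108 CPM, low) in library 2, Nodal (61.1 CPM, low), Kit (12.2 CPM, low), Atf5 (17.2 CPM, high) and Gata4 (0.307 CPM, high) in library 3, and Hmgcs1 (582 CPM, high) in library 4. The remaining 5 were of 0 to 3 counts, with Hoxd1 (0.0282 CPM) and Hoxa2 (0 CPM) in library 1, Mesp1 (0.0256 CPM) and Hoxb1 (0.0769 CPM) in library 3 and Evx1os (0 CPM) in library 4.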

How the results depend on the processing

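The counts of calls stayed within 1.5 times of 2968 higher and 2549 lower under size factors by relative log expression, DESeq2, no filter on low counts, 5 CPM in 4 libraries, only the 8 libraries, the replicate block, limma with library weights and each library left out (2477 to 2795 higher and 2115 to 2493 lower without any of the other 7), with the exception of the fold threshold (1554 higher, 1292 lower). Without day 4 library 1 the fit of all groups gave 2557 higher and 2206 lower calls, and the fit of only the 7 libraries gave 3056 and 3004. The replicate number used as a block gave 3406 higher and 3028 lower calls, and 2746 and 2687 with only the 8 libraries, where T and Mixl1 were not called (adjusted p 0.0999 and 0.0818). The correlations of same-numbered day 4 and day 3 libraries ran from -0.098 to 0.259. In 2 of the 4 the same number was the best match, so a pairing by number is not settled. Same-numbered untreated and XAV939 libraries matched best in 4 of 4 on day 4 (0.292 to 0.523) and on day 3 (0.145 to 0.491). The main fit did not use the numbers. The difference from the XAV939 step gave 0 calls in every setting run, the block within each day included. Signs turned in these genes, where the cause was not tested unless library 1 was left out: Lhx1 (-0.57 under limma, and -1.01 to 4.98 with 1 library left out), Chac1 (-0.0305 with the block in the 8 libraries, -0.57 under limma, and -0.76 to 1.67), Sox17 (-0.53 under limma, -0.49 in the 7 libraries, and -0.48 to 3.06), Cer1 (-1.21 under limma, -1.92 in the 7 libraries, and -1.92 to 5.35), Snai1 (-0.46 under limma, -0.44 in the 7 libraries, and -0.44 to 0.60), Vegfa (-0.20 under limma, -0.26 in the 7 libraries, and -0.26 to 0.32), Dnmt3l (-0.94 to 0.13, and 0.12 in the 7 libraries), Fgf5 (-0.0243 in the 7 libraries, and -0.024 to 0.47), Esrrb (-0.96 to 0.0666), Klf4 (-0.44 to 0.0745), Slc2a3 (-0.0933 to 0.49), Sox3 (-0.086 to 0.15), Pou5f1 (-0.0124 with relative log expression and with DESeq2, -0.0331 with the block in the 8 libraries, -0.10 under limma, -0.20 in the 7 libraries, and -0.20 to 0.17) and Dnmt3b (-0.0246 with relative log expression and with DESeq2, -0.005004 without a filter, -0.0135 with 5 CPM, -0.0459 with the block and -0.0522 with it in the 8 libraries, and -0.23 to 0.16). Lhx1 and Chac1 stood at -1.01 and -0.76 in the 7 libraries. Genes near 3 counts over a group are limited by depth.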
